A study of Rattus norvegicus with 20 samples.

Results

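The SLC25 family comprises the carriers that move nucleotides, phosphate, carboxylates, amino acids and cofactors across the inner mitochondrial membrane. They link the mitochondrial matrix with the cytosol. ADP/ATP carriers bring ADP in and release newly made ATP, the phosphate carrier feeds ATP synthase, and the citrate, ornithine and carnitine carriers tie mitochondria to fatty acid synthesis, the urea cycle and fatty acid oxidation. All these routes are busy in hepatocytes. Here the carriers were followed in preneoplastic rat liver lesions. The members were all genes whose annotated symbol begins with Slc25a and a number: 33 genes, carried by 35 array probes, of 13337 named genes. Each gene was read through its brightest probe over the 20 arrays. Carriers of the family under other symbols, and those with no annotated probe, were not analysed here.

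Lesions were produced in male Fischer rats by the resistant-hepatocyte (R-H) model. In this model 1 dose of the carcinogen diethylnitrosamine (DENA) is followed by a diet with 2-acetylaminofluorene (2-AAF), which blocks growth of normal hepatocytes, and by partial hepatectomy (PH). The CK-19-positive nodules and the nodules without CK-19 (CK-19-negative nodules) were single laser-captured nodules taken 10 weeks after DENA, 7 weeks after PH, and were told apart by staining for cytokeratin-19, a bile duct and progenitor cell keratin. EPFs were early preneoplastic foci, pooled from several foci per sample, taken 7 days after PH, 4 weeks after DENA. Control samples were captured areas of normal liver. The paper calls its controls age-matched, but the same 5 control arrays were set here against lesions of both ages. Its methods also mention random areas from livers under the R-H protocol. Each of the 4 groups had 5 arrays (Illumina RatRef-12, values on a linear signal scale). The nodule groups were set by CK-19 staining, so Krt19 itself, the gene for CK-19, is no finding between them. Recent 2-AAF feeding and regeneration after PH cannot be told apart from lesion type in EPFs, because only these lesions were taken so soon after both. No label says which rat an array came from, and the RNA came from few rats, so arrays may share an animal and the p-values below may be too small.

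The EPF arrays lay alone on 1 chip, so that chip and EPF cannot be told apart. Chip 1 held all CK-19-positive nodules beside CK-19-negative nodule 5 and controls 1 and 2. Control 3 shared chip 2 with the other CK-19-negative nodules, and controls 4 and 5 were on chip 3. Highest correlations between arrays were 0.981 to 0.994. Gstp1, the placental glutathione S-transferase that marks these lesions, read 41256 to 43418 in CK-19-positive nodules, 19371 to 26758 in CK-19-negative nodules and 42071 to 44883 in EPFs, against 261.1 to 449.1 in control liver. Summed signals of 9 hepatocyte markers, albumin and transferrin among them, were 157599 to 180868 in CK-19-positive nodules, 167346 to 213191 in CK-19-negative nodules and 153476 to 172347 in EPFs, against 165051 to 243093 in control liver. Of these 9, Cyp2c11, a male-specific cytochrome P450, was called lower in all 3 kinds of lesion and Tat, tyrosine aminotransferase, in CK-19-positive nodules, and none was called higher. Erythrocyte markers, taken as a sum, were lower in lesions. Their summed signal was 7248 to 14238 in CK-19-positive nodules, 9132 to 22556 in CK-19-negative nodules and 6689 to 8105 in EPFs, against 28027 to 53638 in control liver, and 3 of the 5 tested were called lower in each lesion. These 3 were globin genes. Of the others tested, Ahsp was higher in CK-19-positive nodules (log2 0.41) and nearer control in CK-19-negative nodules (0.08) and EPFs (-0.12). Slc4a1 was at -0.41, -0.12 and -0.14 in the same order. Neither gene was called. In such bulk samples, fewer cells of a type and less RNA per cell cannot be told apart.

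Of the 33 carriers, 23 had a signal over 200 on at least 5 arrays and were tested among 6102 such genes. Of these, 16 were over 200 on every array. The 7 others were dim on some arrays: Slc25a21 passed 200 on 19 arrays, Slc25a32 and Slc25a35 on 15 each, Slc25a51 on 10, Slc25a52 on 8, and Slc25a27 and Slc25a30 on 5 each. No tested carrier had all its arrays over 200 in 1 group. For Slc25a30, however, 4 of the 5 were control arrays and 1 was a CK-19-negative nodule. It was therefore tested mainly because of its control signals, and its fall in EPFs was called against those same controls. The remaining 10 carriers stayed between 112.3 and 210.2 and were not tested. They were Slc25a2, a second ornithine carrier; Slc25a14, an uncoupling-protein relative; Slc25a22, a glutamate carrier; Slc25a23, Slc25a24 and Slc25a41, which exchange ATP-Mg for phosphate; Slc25a26, the S-adenosylmethionine carrier; Slc25a34, an orphan; Slc25a40, a relative of the glutathione carrier; and Slc25a42, a coenzyme A carrier. Of these, Slc25a26 exceeded 200 on 3 arrays, and Slc25a23, Slc25a24 and Slc25a40 on 1 array each.

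A carrier was called when its limma p-value, adjusted by the Benjamini-Hochberg method over all 6102 genes, was under 0.05 and its change at least 2-fold. "Rose" and "fell" are used below for called changes only. In CK-19-positive nodules, Slc25a4 rose and Slc25a25 and Slc25a47 fell against control liver. In CK-19-negative nodules limma called 0 carriers. Before adjustment, and whatever the fold, 4 carriers with p under 0.05 were higher there (Slc25a4, Slc25a10, Slc25a21 and Slc25a39) and 2 lower (Slc25a30 and Slc25a46). The share of all genes under this unadjusted rule was not computed, so no result is read from these counts. In EPFs, Slc25a4 and Slc25a3 rose and Slc25a47 and Slc25a30 fell.

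The counts of called carriers were small and stood near the shares of all genes. In CK-19-positive nodules 1 of the 23 carriers rose (4.35%) and 2 fell (8.7%). Of all tested genes, 4.95% were called higher and 4.9% lower. In CK-19-negative nodules the corresponding shares of all genes were 1.29% and 0.656%. In EPFs 2 carriers rose and 2 fell, against 6.26% and 6.15% of all genes. Without the fold threshold, 5 carriers (21.7%) were higher and 8 (34.8%) lower in CK-19-positive nodules, against 23.4% and 22.6% of all genes. In CK-19-negative nodules 1 was higher and 1 lower, against 8.77% and 7.36%. In EPFs 7 (30.4%) were higher and 9 (39.1%) lower, against 28.3% and 27.7%. The arrays of lesion and control did not overlap for 10 carriers (43.5%) in CK-19-positive nodules, 0 in CK-19-negative nodules and 14 (60.9%) in EPFs. Such separation was found for 31%, 10.5% and 41.5% of all tested genes in the same 3 comparisons. The median log2 difference of the 23 carriers was -0.182 in CK-19-positive nodules, 0.0114 in CK-19-negative nodules and -0.0673 in EPFs, beside medians of all genes of -0.00625, -0.00246 and -0.0177. Within each of CK-19-positive nodules and EPFs, individual carriers went opposite ways.

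**Figure D1:**
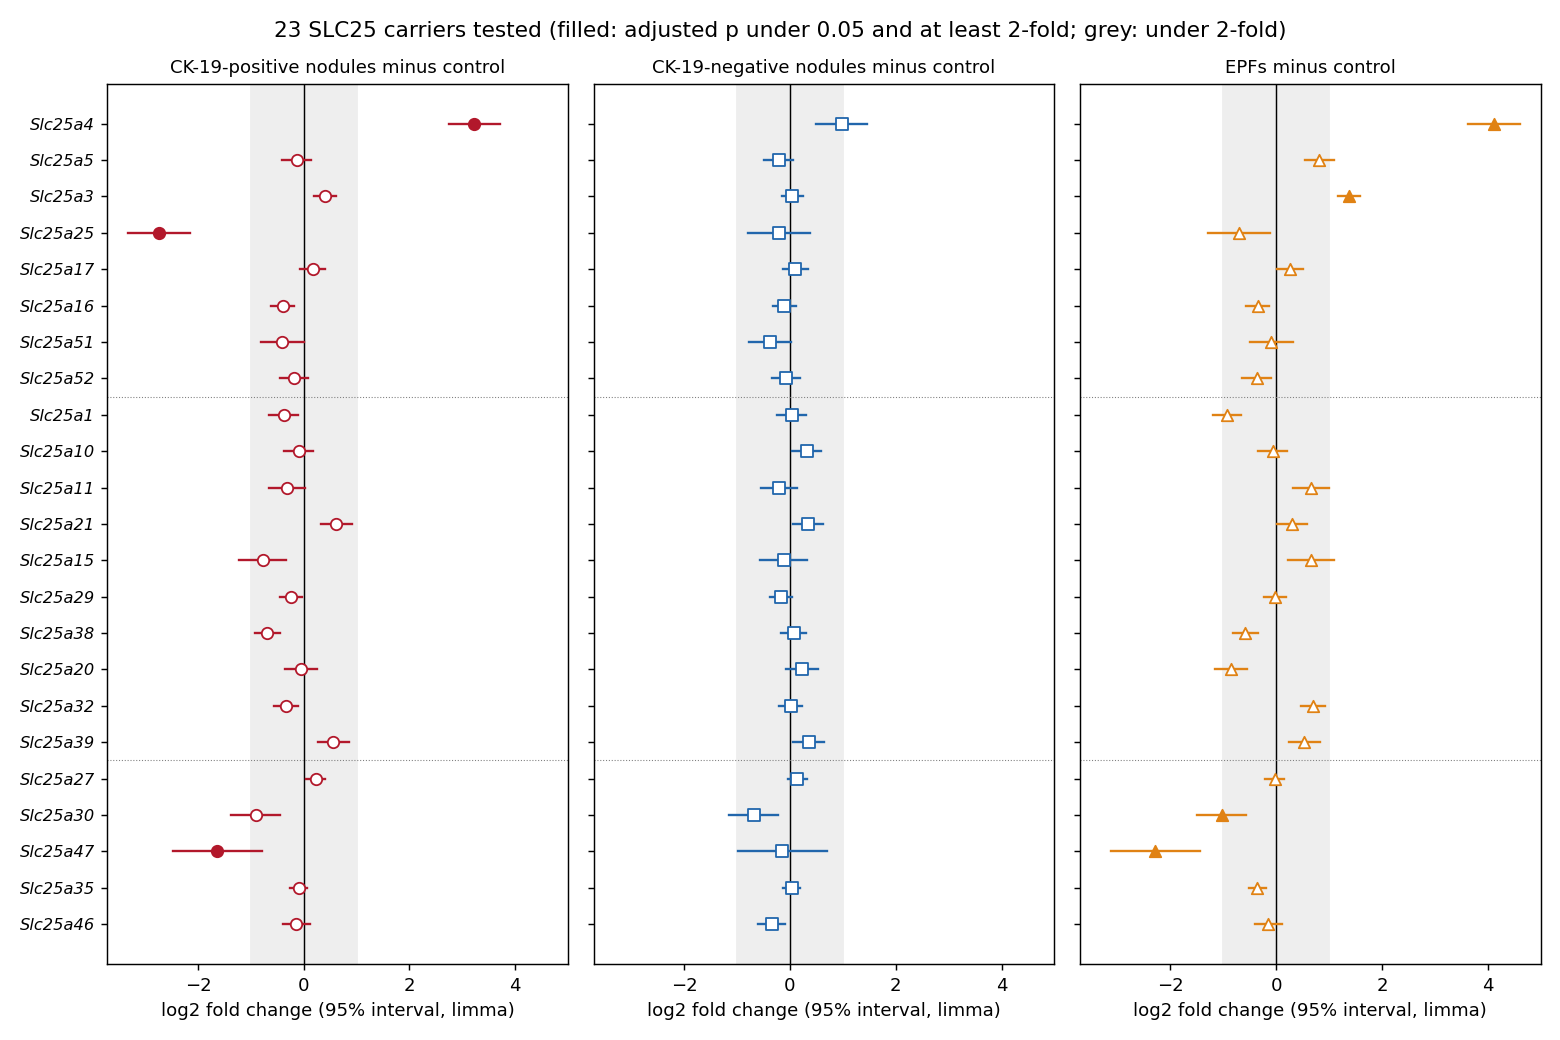
Log2 fold changes of the 23 tested carriers in CK-19-positive nodules, CK-19-negative nodules and EPFs, each against control liver (x axis, log2 units; bars, 95% intervals of the limma fit; n = 5 arrays a group). Carriers run from nucleotide and phosphate carriers at the top, through carboxylate, amino acid and cofactor carriers, to uncoupling-like and orphan members; filled symbols are called changes, with Slc25a4 farthest to the right in CK-19-positive nodules (3.23) and EPFs (4.12).

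Promoter sequences are given for the carriers with the largest changes in lesions, Slc25a4, Slc25a25 and Slc25a47, so that the letters before each start site stand beside its signals. They are RefSeq sequences of the GRCr8 rat assembly, 250 bases before to 50 bases after the annotated start, 5′ to 3′ on the gene's strand. Capitals mark a CCAAT box (CCAAT, or ATTGG for the other strand) in Slc25a4 and Slc25a47 and a cAMP response element (TGACGTCA) in Slc25a25.
Slc25a4, chr16:52805271-52805570, plus strand: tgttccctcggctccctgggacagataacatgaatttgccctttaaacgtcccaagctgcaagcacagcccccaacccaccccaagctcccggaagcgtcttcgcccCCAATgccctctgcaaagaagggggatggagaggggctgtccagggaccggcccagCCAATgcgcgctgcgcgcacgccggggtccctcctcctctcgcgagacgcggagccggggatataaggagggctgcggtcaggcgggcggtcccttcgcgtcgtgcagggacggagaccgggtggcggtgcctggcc
Slc25a25, chr3:36116532-36116831, minus strand: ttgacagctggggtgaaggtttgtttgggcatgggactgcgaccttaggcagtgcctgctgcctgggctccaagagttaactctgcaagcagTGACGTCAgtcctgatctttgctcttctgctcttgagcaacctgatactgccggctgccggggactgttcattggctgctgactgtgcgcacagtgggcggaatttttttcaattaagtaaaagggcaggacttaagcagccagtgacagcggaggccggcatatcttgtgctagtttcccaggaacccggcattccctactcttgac
Slc25a47, chr6:133531491-133531790, plus strand: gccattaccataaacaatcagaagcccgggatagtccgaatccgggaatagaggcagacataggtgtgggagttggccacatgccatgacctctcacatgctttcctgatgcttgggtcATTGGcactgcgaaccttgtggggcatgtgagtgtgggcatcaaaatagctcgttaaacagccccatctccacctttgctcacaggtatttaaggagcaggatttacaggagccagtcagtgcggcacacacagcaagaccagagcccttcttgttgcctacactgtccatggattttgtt

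The Slc25a4 promoter held CCAAT at 143 and at 87 bases before the start, and the Slc25a47 promoter held it on the other strand at 131 bases before. CCAAT, searched on both strands, was present in 16 of the 28 carriers with a promoter in the table (57.1%), in 37.7% of all 27457 promoters and in 39.2% of those of tested genes. The palindromic TGACGTCA of Slc25a25 began 158 bases before the start. A CCAAT box, not capitalised here, began 88 bases before the same start on the other strand. TGACGTCA was found in no other carrier (3.57%), with 1.91% of all promoters and 3.35% of those of tested genes. This Slc25a25 start lies inside the gene's annotated span, downstream of another start. The core of the antioxidant response element, TGACNNNGC on either strand, was present in Slc25a3 and Slc25a25 (7.14% of carriers), in 12.2% of all promoters and in 15.3% of those of tested genes. A match of letters is a description of the sequence and not an observed binding site.

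Among nucleotide carriers, Slc25a4 had the largest changes of the family. It encodes the ADP/ATP carrier isoform best known from heart and skeletal muscle. Its signal was 6846, 7124, 3804, 4909 and 6600 in CK-19-positive nodules 1 to 5. The CK-19-negative nodules read 789.7, 1780, 1434, 669.4 and 1818, and the EPFs 13273, 11526, 8434, 9215 and 10994. Control liver read 675.8, 656.0, 537.1, 555.5 and 628.4. Every CK-19-positive nodule and every EPF sample was above all controls, and every EPF sample was above every nodule. The CK-19-negative nodules lay between, and nodule 4 fell within the control range.

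Slc25a4 averaged 5856 ± 1436 in CK-19-positive nodules against 610.6 ± 61.4 in control liver (SD, n = 5 each), a 9.37-fold rise (log2 3.23 ± 0.233 SE, limma adjusted p = 2.096e-10). In EPFs it averaged 10688 ± 1919, a 17.4-fold rise over the same controls (log2 4.12, adjusted p = 3.779e-12). In CK-19-negative nodules it averaged 1298 ± 541.8, 1.97-fold the control level (log2 0.98, adjusted p = 0.006062), just under the fold threshold. An exact two-sided permutation test on the log2 signals gave p = 0.007937 for CK-19-positive nodules, 0.01587 for CK-19-negative nodules and 0.007937 for EPFs, or 0.0119, 0.01587 and 0.0119 after adjustment over the 3 tests. The smallest p that 5 against 5 arrays allow is 0.007937, and arrays that do not overlap give it by construction. Slc25a4 was tested alone because the paper lists it among its most up-regulated genes, from the study's own arrays. The permutation p-values take no account of that choice. Within chip 1, the log2 difference between CK-19-positive nodules and the 2 controls there was 3.10 (adjusted p = 1.103e-05). For CK-19-negative nodules, the 2-fold threshold was passed without control 1 (log2 1.015), control 2 (1.004), nodule 1 (1.13) or nodule 4 (1.19). Leaving out 1 array at a time gave 0.826 to 1.186. The threshold was also passed with chip as a random block (1.02) or fixed block (1.21). Within chip 1, where 1 nodule stood alone, the difference was 1.45 and was not called. Within chip 2, where 1 control stood alone, it was 1.005 and was not called either.

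Among CK-19-negative nodules, Slc25a4 and Krt19 were high on the same arrays. Krt19 read 197.4 and 199.8 in nodules 1 and 4, inside or below the control range of 206.1 to 248.0, and these were the nodules with the lowest Slc25a4. Krt19 read 1181, 578.4 and 516.1 in nodules 2, 3 and 5, those with the higher Slc25a4. Nodules 1 to 4 shared chip 2, so this split lay within 1 chip apart from nodule 5. The EPFs did not follow it, with Krt19 of 370.9 to 1118 and the highest Slc25a4 of all. With 5 nodules no correlation was computed. The paper counted as CK-19-negative only nodules and EPFs without any stained cell, so these Krt19 signals came from lesions negative by staining. The source of this Krt19 RNA was not tested.

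**Figure D2:**
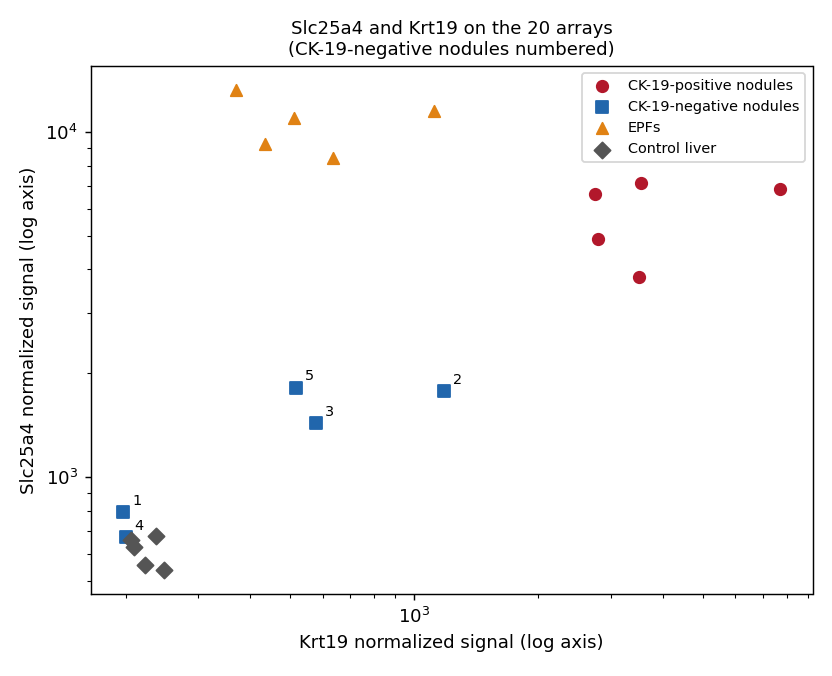
Normalized signals of Krt19 (x, log axis) and Slc25a4 (y, log axis) on the 20 arrays, by group, with CK-19-negative nodules numbered. CK-19-negative nodules 1 and 4 lie beside the control arrays, nodules 2, 3 and 5 lie apart, and the EPFs have the highest Slc25a4 at Krt19 of 370.9 to 1118.

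Muscle markers were measured because Slc25a4 is abundant in muscle. Of 17 muscle genes on the array, 12 were under 200 on every array, and these included Ckm, Acta1 and Mb. Only 2 were bright enough to test, and both were higher in EPFs. Tnnt2, cardiac troponin T, was called there (log2 1.06, adjusted p = 1.575e-06) and was higher in CK-19-positive nodules (0.45, adjusted p = 0.01353). Tnnc2, skeletal troponin C, averaged 312.8 ± 62.5 in EPFs against 197.9 ± 20.2 in control liver (SD, n = 5 each; log2 0.64, adjusted p = 0.0001064). The summed signal of the 17 was 2554 to 2634 in CK-19-positive nodules, 2547 to 2663 in CK-19-negative nodules and 2728 to 3014 in EPFs, against 2481 to 2641 in control liver. The part of muscle RNA in the Slc25a4 signals was not tested.

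The other ADP/ATP carrier measured, Slc25a5, is the isoform of proliferating and non-muscle tissue. Its signal was 20067, 22414, 19282, 18818 and 20573 in EPFs. In control liver it was 9633, 12068, 11986, 9941 and 14537, so every EPF sample was above every control. The difference, 1.76-fold, stayed below the threshold (log2 0.81, adjusted p = 1.995e-05). CK-19-positive nodules read 9498 to 12100 and CK-19-negative nodules 7980 to 13959, both overlapping controls (log2 -0.13 with a 95% interval of -0.40 to 0.15, and -0.21 with an interval of -0.49 to 0.06). Slc25a4 and Slc25a5 are similar in sequence, and cross-hybridisation between their probes was not tested.

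Slc25a3, the phosphate carrier, rose in EPFs. Its signal was 14120, 12689, 11874, 11736 and 13099 in EPFs. Control liver read 4342, 4769, 5294, 4897 and 5082, well apart from every EPF sample. The rise was 2.6-fold (log2 1.38 ± 0.099 SE, adjusted p = 1.132e-10). CK-19-positive nodules read 7325, 5981, 6414, 6023 and 6414, also above every control but by only 1.32-fold (log2 0.40, adjusted p = 0.002148). CK-19-negative nodules read 3956 to 5701 and overlapped controls (log2 0.05, adjusted p = 0.7928).

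Slc25a4, Slc25a5 and Slc25a3 were thus all higher in EPFs than in control liver. Of 19 genes of protein import and mitochondrial content tested, 4 were called higher in EPFs and none lower (Tomm40, log2 1.27; Tomm20, 1.20; Tomm22, 1.10; all 3 in the outer membrane import complex, and Timm17a of the inner membrane one, 1.02). At an adjusted p under 0.05 whatever the fold, 15 of the 19 were higher in EPFs, while Polg, the mitochondrial DNA polymerase, was lower (log2 -0.89, adjusted p = 3.748e-06) and Hspa9, Tfam and Polrmt did not pass. None of the 19 was called in either kind of nodule. Medians of the list were 0.004 in CK-19-positive nodules, 0.036 in CK-19-negative nodules and 0.660 in EPFs. Its summed signal was 49326 to 57280, 44446 to 49054 and 59919 to 74144 in the same lesions, against 37081 to 48289 in control liver. Whether the carriers' levels follow mitochondrial content was not tested.

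Partners of the ADP/ATP carriers, in the outer membrane and at the permeability pore, also moved. Tspo, the translocator protein of the outer membrane, rose in CK-19-positive nodules (log2 2.65, adjusted p = 3.235e-12) and in EPFs (1.63, adjusted p = 3.554e-09). Vdac2, a pore that passes nucleotides, rose in EPFs (1.20, adjusted p = 9.234e-10), and Ppif, the cyclophilin that regulates the permeability pore, fell in CK-19-positive nodules (log2 -1.02, adjusted p = 0.001022). Of 6 tested, these made 1 higher and 1 lower in CK-19-positive nodules, 0 in CK-19-negative nodules and 2 higher in EPFs. Among 10 other inner membrane carriers and relatives, Sfxn5, a sideroflexin, was the only gene called, falling in CK-19-positive nodules (-1.09) and EPFs (-1.46).

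Slc25a25 gave the largest fall in CK-19-positive nodules. It is a calcium-regulated carrier that exchanges ATP-Mg for phosphate and so sets the size of the matrix nucleotide pool. Its signal was 543.3, 545.3, 1177, 1202 and 688.0 in CK-19-positive nodules. The CK-19-negative nodules read 3232, 2560, 5544, 6969 and 5725, and the EPFs 2596, 2885, 3438, 3723 and 3322. Control liver read 6156, 3465, 4856, 9078 and 3916. The highest CK-19-positive nodule lay below the lowest array of every other group, and the controls themselves spread widely. The mean was 831.1 ± 332.5 in CK-19-positive nodules against 5494 ± 2253 in control liver (SD, n = 5 each), 6.63-fold lower (log2 -2.73 ± 0.283 SE, adjusted p = 5.551e-08). Within chip 1 the difference was -2.57 (adjusted p = 0.000451). In EPFs Slc25a25 was 1.63-fold lower (log2 -0.71, adjusted p = 0.03833), and in CK-19-negative nodules the difference was -0.20 with a 95% interval of -0.79 to 0.39. With chip as a random block, the EPF difference had an adjusted p of 0.07262.

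**Figure D3:**
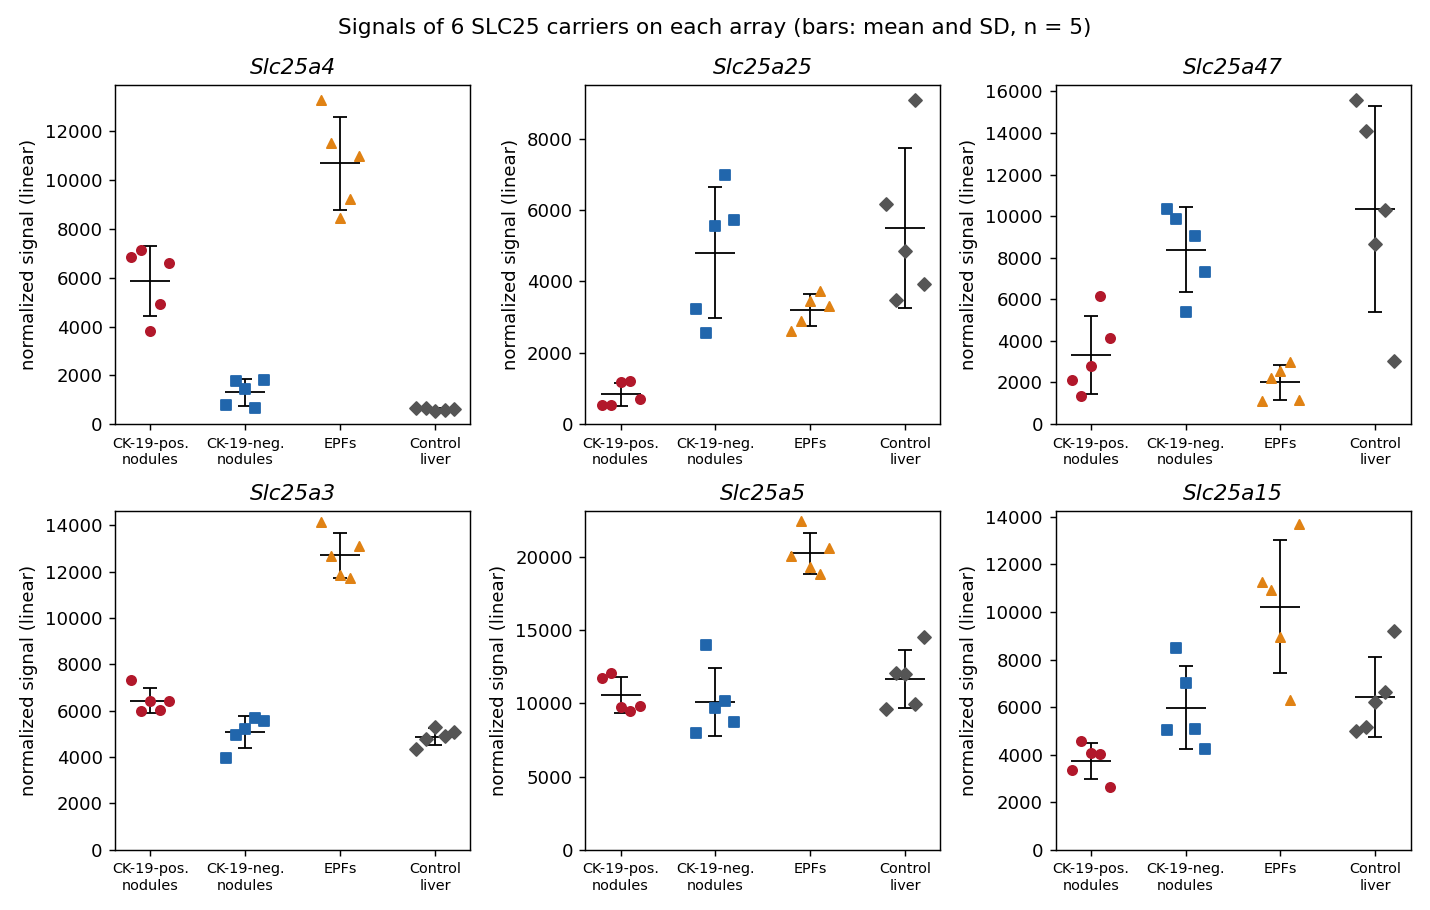
Normalized signals (linear axes starting at 0) of Slc25a4, Slc25a25, Slc25a47, Slc25a3, Slc25a5 and Slc25a15 on each array of CK-19-positive nodules, CK-19-negative nodules, EPFs and control liver (points; lines, mean and SD, n = 5). Slc25a4 is high in CK-19-positive nodules and EPFs, Slc25a25 is low in CK-19-positive nodules (543.3 to 1202), Slc25a47 is low in CK-19-positive nodules and EPFs, and Slc25a3 and Slc25a5 are highest in EPFs.

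The remaining cofactor carriers of the nucleotide branch changed little. Slc25a16, linked to coenzyme A supply, was lower in CK-19-positive nodules (log2 -0.40, adjusted p = 0.003127) and EPFs (-0.35, adjusted p = 0.006564), with no overlap of arrays in either. Slc25a17, the peroxisomal member, and Slc25a51, an NAD+ carrier, passed the adjusted p in no comparison. Slc25a52, the close relative of Slc25a51, was lower in EPFs at a signal under 200 on every EPF array (log2 -0.37, adjusted p = 0.01677), which bounds the difference at 1.07-fold or more.

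Slc25a47 fell in CK-19-positive nodules and in EPFs. This carrier is made mainly by the liver. Its signal was 2117, 1370, 2808, 6156 and 4157 in CK-19-positive nodules and 1091, 2218, 2549, 3008 and 1159 in EPFs. The CK-19-negative nodules read 10363, 9847, 5390, 9039 and 7325. Control liver read 15589, 14120, 8668, 10295 and 3040, a range wider than in any lesion. Control 5 at 3040 lay within the range of CK-19-positive nodules and just above the highest EPF sample. The fall was 3.1-fold in CK-19-positive nodules (log2 -1.63 ± 0.404 SE, adjusted p = 0.002089) and 4.88-fold in EPFs (log2 -2.29, adjusted p = 5.071e-05). In CK-19-negative nodules the difference was -0.14, with a 95% interval of -0.98 to 0.69. Within chip 1 the difference of CK-19-positive nodules was -2.35 (adjusted p = 0.003088). Leaving out 1 array at a time gave -2.02 to -1.36 for CK-19-positive nodules and -2.68 to -2.09 for EPFs. Its close neighbour in the rat genome, Slc25a29, a carrier of basic amino acids, passed the adjusted p in no comparison (log2 -0.24 in CK-19-positive nodules, -0.17 in CK-19-negative nodules and -0.03 in EPFs).

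Slc25a30, an uncoupling-protein relative known from mouse kidney, was called lower in EPFs on dim signals. It read 164.3, 133.7, 130.6, 136.2 and 165.3 in EPFs. Control liver read 340.9, 678.2, 200.3, 272.7 and 184.8, so the controls spread widely above the EPFs. Since every EPF array was under 200, the fall was at least 1.49-fold by its bound, which is short of 2-fold. The call rested on the fitted log2 of -1.03 (limma adjusted p = 0.000472). The call was lost without control 1 (log2 -0.99), control 2 (-0.74) or EPF 3 (-0.997). A second Slc25a30 probe gave -0.75 (adjusted p = 0.0005841), short of 2-fold, and the other probe was under 200 on every array. CK-19-negative nodules read 169.5 to 232.8 and were lower too, with a fitted log2 of -0.69 and a limma adjusted p under 0.05. With chip as a random block that adjusted p was 0.05002, and the second probe gave -0.45 (limma adjusted p = 0.06993). The difference in CK-19-negative nodules was -1.43 within chip 1, with 1 nodule alone, and -0.105 within chip 2, with 1 control alone. CK-19-positive nodules read 143.4 to 175.0, with a fitted log2 of -0.91 (adjusted p = 0.002148) and the same bound of 1.49-fold. That difference passed the fold threshold when chip entered the fit as a fixed block (-1.36, adjusted p = 0.0006259) and within chip 1 (-1.60, adjusted p = 0.0004192).

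Among other uncoupling-like and orphan members, Slc25a27, a brain-type uncoupling protein, was higher in CK-19-positive nodules (log2 0.23, limma adjusted p = 0.03475). Control arrays were all under 200, which bounds the difference at 1.04-fold or more. The gene had passed the signal filter only through nodule arrays, those of CK-19-positive nodules among them. With chip as a fixed block the difference was 0.25 (adjusted p = 0.0681). Slc25a35, an orphan, was lower in EPFs (log2 -0.36, adjusted p = 0.0005262). Slc25a46, which sits in the outer membrane and acts in mitochondrial fission, passed the adjusted p in no comparison.

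The ornithine carrier Slc25a15, which returns ornithine to the matrix for the urea cycle, lay below control in CK-19-positive nodules and above it in EPFs. Its signal was 3366, 4561, 4064, 4042 and 2648 in CK-19-positive nodules and 11278, 10933, 8930, 6281 and 13704 in EPFs. The CK-19-negative nodules read 5042, 8482, 7009, 5088 and 4229, and control liver 4988, 5182, 6223, 6613 and 9187. All CK-19-positive nodules were below all controls, while EPFs overlapped controls. Neither difference from control reached 2-fold (log2 -0.77, adjusted p = 0.004659 in CK-19-positive nodules, and 0.66, adjusted p = 0.01163 in EPFs). Within chip 1 the CK-19-positive difference was -0.47 (adjusted p = 0.0772).

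Enzymes around ornithine showed larger changes. Odc1, which turns ornithine into putrescine, rose in CK-19-positive nodules (log2 2.54), CK-19-negative nodules (1.70) and EPFs (3.06). Oat, which turns ornithine into glutamate semialdehyde, fell in CK-19-positive nodules (-3.00) and EPFs (-2.50). Nags, which makes the activator of the urea cycle, fell in CK-19-positive nodules (-1.66). Of 8 urea cycle and ornithine genes tested, 1 rose and 2 fell in CK-19-positive nodules, 1 rose in CK-19-negative nodules, and 2 rose and 1 fell in EPFs.

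The citrate carrier Slc25a1, which exports citrate for fatty acid synthesis, averaged 2799 ± 313.7 in EPFs against 5343 ± 694.7 in control liver (SD, n = 5 each). The EPF arrays, at 2438 to 3177, were all below the controls, at 4465 to 6363. The difference stayed just under 2-fold (log2 -0.93, adjusted p = 2.655e-06), and it was -0.38 in CK-19-positive nodules (adjusted p = 0.02038) and 0.03 in CK-19-negative nodules (adjusted p = 0.8999). With chip as a fixed block the CK-19-positive difference was -0.27 (adjusted p = 0.2322). Of 6 genes of citrate use and fatty acid synthesis tested, 3 fell in EPFs. They were Scd, a fatty acid desaturase (log2 -2.69), Thrsp, a lipogenic nuclear protein (-2.62), and Acly, which splits the exported citrate (-2.05). None of the 6 was called in either kind of nodule.

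The carnitine-acylcarnitine carrier Slc25a20, which brings fatty acids in for oxidation, was also lower in EPFs. Its signal was 540.6, 560.7, 540.6, 536.9 and 456.2 in EPFs. Control liver read 1184, 1079, 910.5, 901.8 and 732.7, above every EPF sample, for a difference of 1.8-fold (log2 -0.85, adjusted p = 3.624e-05). CK-19-positive nodules read 612.6 to 1135 and CK-19-negative nodules 969.1 to 1308, both overlapping controls. Of 15 genes of the carnitine shuttle and beta-oxidation tested, 1 rose and 3 fell in CK-19-positive nodules, none was called in CK-19-negative nodules and 1 fell in EPFs. Crot, which moves acyl groups to carnitine in peroxisomes, fell in CK-19-positive nodules (log2 -2.41), Hadh, a beta-oxidation dehydrogenase, fell in CK-19-positive nodules (-1.37) and EPFs (-1.64), and Acaa2, a mitochondrial thiolase, rose in CK-19-positive nodules (1.22).

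Dicarboxylate carriers changed less. Slc25a11, which exchanges oxoglutarate for malate in the malate-aspartate shuttle, was higher in EPFs at 1977 to 2651 against 1159 to 1719 in control liver (log2 0.65, adjusted p = 0.001766). Of 6 shuttle genes tested, Got1, the cytosolic aspartate aminotransferase, was the only one called, rising in EPFs (1.68, adjusted p = 0.0001642). Slc25a10, the dicarboxylate carrier, did not pass against control in any lesion. Slc25a21, the oxodicarboxylate carrier, was higher in CK-19-positive nodules (log2 0.62, adjusted p = 0.0008676). Among 7 genes of gluconeogenesis and its carriers' partners, 2 fell in CK-19-positive nodules and 2 in EPFs, among them G6pc1, glucose-6-phosphatase (log2 -2.96 and -2.43), Pc, pyruvate carboxylase, in EPFs (-1.98), and Pck1, the cytosolic carboxykinase, in CK-19-positive nodules (-1.58).

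Carriers of glycine, glutathione and folate also differed modestly. Slc25a38, which imports glycine for heme synthesis, was lower in CK-19-positive nodules (log2 -0.69, adjusted p = 4.251e-05) and EPFs (-0.58, adjusted p = 0.0001967), with no overlap with control arrays in either. In CK-19-negative nodules Slc25a38 was at 0.07 (adjusted p = 0.7376). The summed erythrocyte markers were lower in all 3 lesions, with Ahsp an exception as given above. Their part in the Slc25a38 differences was not tested. Slc25a39, a glutathione importer, was higher in CK-19-positive nodules (0.56, adjusted p = 0.002369) and EPFs (0.53, adjusted p = 0.002746). With chip as a fixed block the CK-19-positive difference was 0.40 (adjusted p = 0.09571), and within chip 1 it was 0.53 (adjusted p = 0.01355). Of 12 iron, heme and glutathione genes tested, 3 rose in CK-19-positive nodules, 2 in CK-19-negative nodules and 4 in EPFs, and none fell. Gclc and Gclm, the subunits of the first enzyme of glutathione synthesis, rose in all 3 lesions (Gclc, log2 3.75 in CK-19-positive nodules, 2.21 in CK-19-negative nodules and 2.57 in EPFs).

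Slc25a32, a carrier of folate and FAD, was dim but shifted oppositely in CK-19-positive nodules and EPFs. Its signal was 208.7, 158.2, 184.1, 165.8 and 167.7 in CK-19-positive nodules and 292.9, 409.9, 360.6, 340.1 and 422.8 in EPFs. The CK-19-negative nodules read 209.2 to 243.2 and control liver 197.8 to 267.9. Every EPF sample was above every control (log2 0.70, adjusted p = 1.003e-05), whereas CK-19-positive nodules overlapped them (-0.34, adjusted p = 0.01293). Of 7 folate and one-carbon genes tested, only Dmgdh, dimethylglycine dehydrogenase, was called, falling in EPFs (-1.66). Of 10 cofactor genes, 2 fell in CK-19-positive nodules (Gnmt, -1.996; Mat1a, -1.24) and 2 in EPFs (Gnmt, -2.58; Pank1, -1.29). Gnmt and Mat1a use and make S-adenosylmethionine, and Pank1 starts coenzyme A synthesis.

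The lesions were then set directly against each other. CK-19-positive nodules differed from CK-19-negative nodules in 3 carriers: Slc25a4 was 4.76-fold higher (log2 2.25, adjusted p = 3.11e-07), Slc25a25 was 5.76-fold lower (-2.53, adjusted p = 7.754e-07) and Slc25a47 was 2.81-fold lower (-1.49, adjusted p = 0.007407). That is 1 carrier higher and 2 lower of 23, against 2.39% of all genes in each direction. Slc25a4 and Slc25a25 had no overlap of arrays, whereas Slc25a47 overlapped, with CK-19-positive nodule 4 at 6156 and CK-19-negative nodule 3 at 5390. With chip as a fixed block Slc25a4 was at 1.81 (adjusted p = 0.004087), Slc25a25 at -2.69 (adjusted p = 0.002277) and Slc25a47 at -1.69 (adjusted p = 0.05458), so the last call was lost. Slc25a38 was lower in CK-19-positive nodules (-0.76, adjusted p = 3.344e-05) and passed 2-fold only within chip 1, where 1 CK-19-negative nodule stood alone (-1.002, adjusted p = 0.02454).

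CK-19-positive nodules were lower than EPFs in 3 carriers and higher in 0, against 2.74% and 3.43% of all genes. Before adjustment, and whatever the fold, limma gave 8 lower and 5 higher with p under 0.05. The share of all genes was not computed for that rule, so no result is read from it. Slc25a25 was 4.06-fold lower (log2 -2.02, adjusted p = 5.394e-06), Slc25a15 2.69-fold lower (-1.43, adjusted p = 1.049e-05) and Slc25a32 2.06-fold lower (-1.04, adjusted p = 1.05e-07). In all 3 the arrays did not overlap. The Slc25a32 call was lost without EPF 2 (-0.996) or EPF 5 (-0.98). Slc25a3 (-0.98), Slc25a11 (-0.97), Slc25a5 (-0.94) and Slc25a4 (-0.89) were all lower in CK-19-positive nodules with adjusted p under 0.05 but under 2-fold. Slc25a3 and Slc25a11 passed 2-fold without CK-19-positive nodule 1 or without EPF 3, which raised the count to 5.

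CK-19-negative nodules were higher than EPFs in 2 carriers and lower in 3, against 4.79% and 4.13% of all genes. Slc25a47 was 4.42-fold higher (log2 2.15, adjusted p = 0.000128) and Slc25a20 2.1-fold higher (1.07, adjusted p = 2.579e-06) in CK-19-negative nodules. Slc25a4 was 8.82-fold lower (-3.14, adjusted p = 4.233e-10), Slc25a3 2.52-fold lower (-1.33, adjusted p = 4.233e-10) and Slc25a5 2.04-fold lower (-1.03, adjusted p = 1.302e-06). The arrays did not overlap for any of these 5. The Slc25a5 call was lost without CK-19-negative nodule 1 (-0.95), nodule 5 (-0.98) or EPF 2 (-0.99). Slc25a1 was 0.96 higher on the log2 scale in CK-19-negative nodules (adjusted p = 2.315e-06), just short of the threshold.

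**Figure D4:**
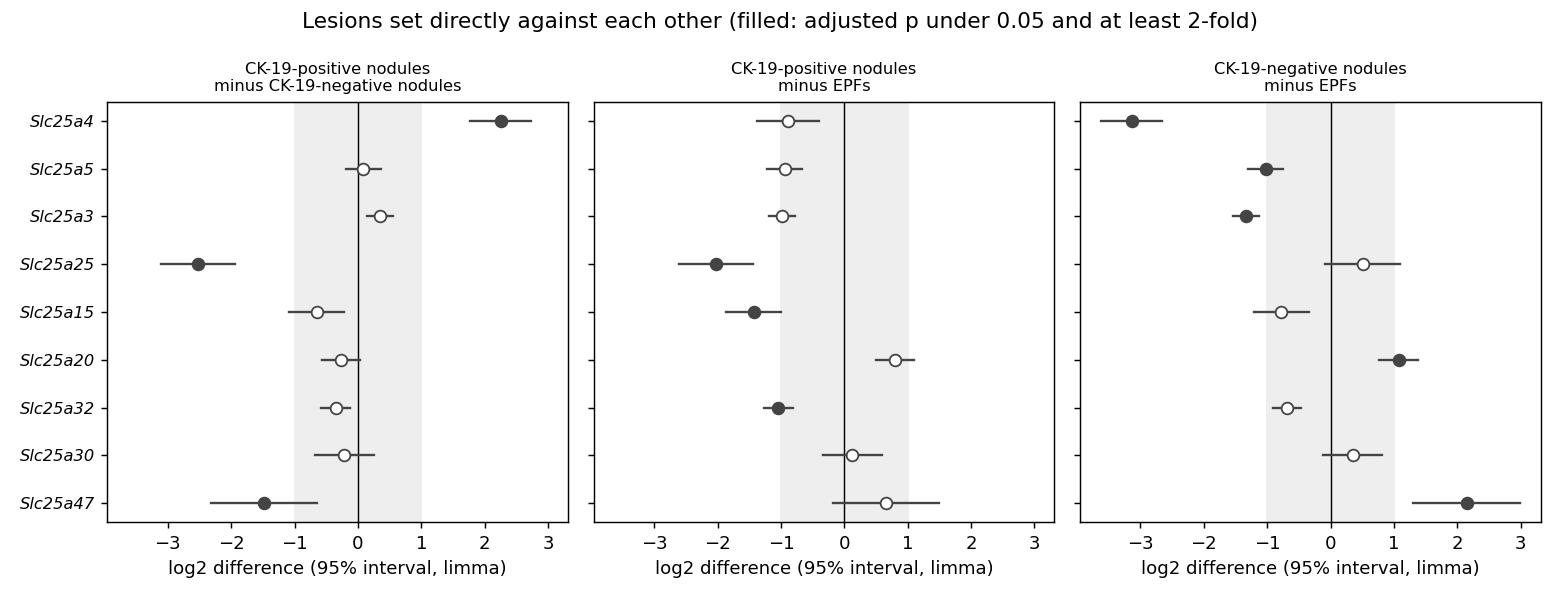
Log2 differences between lesions for the 9 carriers called in any comparison (x axis, log2 units, first-named lesion minus the second; bars, 95% intervals of the limma fit; n = 5 arrays a group; filled, called). Slc25a25 lies to the left in both comparisons of CK-19-positive nodules (-2.53 and -2.02), and Slc25a4 lies to the right against CK-19-negative nodules (2.25).

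Across the 6 comparisons, 9 carriers were called at least once and 14 of the 23 tested were not. Against control liver, Slc25a4 and Slc25a47 were the carriers called in both CK-19-positive nodules and EPFs, and these comparisons share their control arrays. Slc25a25 was called in CK-19-positive nodules and Slc25a3 in EPFs. For both, the direct comparison of CK-19-positive nodules with EPFs had an adjusted p under 0.05 in the direction given above, with Slc25a3 short of 2-fold. Biliary and progenitor markers moved with these lesions as well. Of 9 tested, 3 rose and 1 fell in CK-19-positive nodules, 2 rose in CK-19-negative nodules, and 6 rose and 1 fell in EPFs. Summed signals of these markers, Krt19 included, were 10697 to 16877, 6454 to 10184 and 7109 to 14022 in these lesions, against 4861 to 10021 in control liver. Their part in the carrier differences was not tested.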

How the data were processed

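RNA of laser-captured rat liver tissue had been hybridised to 20 arrays, 5 in each of 4 groups. The authors loaded the intensity files into BeadStudio 3.0.19.0 and BRB ArrayTools and deposited quantile-normalized intensity values on a linear scale (95.5 to 44882.6, median 157 on every array). A second, unnormalized table of 40 value columns was not used, because its column names match no sample. Of 22523 probes, 13793 have 1 annotated gene, and 8730 are unnamed here.

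The brightest probe per gene was taken, signals were put on the log2 scale, and genes with a signal over 200 on 5 or more of the 20 arrays were fitted together with limma 3.58.1 (R 4.3.3), without a chip term. P-values were adjusted by the Benjamini-Hochberg method over 6102 genes, and calls needed an adjusted p under 0.05 and 2-fold. For a carrier with every array of a group under 200, a bound on the fold was given beside the fit. Its call still rested on the fitted values. Array number limits precision. The named genes were every carrier, with values on all arrays where called, and up to 3 called genes of each partner list with the largest change. A few others outside this rule (Krt19, Ckm, Acta1, Mb, Tnnc2, Timm17a, Polg, Cyp2c11, Tat and Gstp1) were named after their values were seen. The erythrocyte markers Ahsp and Slc4a1 were named in the same way. Members, lists and alternatives were chosen with earlier results of these data known. Nothing shows the arrays of a group to be separate rats, so p-values may measure only the spread between samples.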

Additional observations from a re-analysis of the deposited data

Results flagged for a closer look

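In 8 of 92 sets of 5 arrays (1 carrier in 1 group), 1 array stood far from the other 4 by Dixon's ratio, where chance at 1 in 20 gives 4.6. Slc25a16 read 239.1 in CK-19-negative nodule 2, with the others at 330.7 to 349.1. Slc25a21 read 221.7 in CK-19-negative nodule 4, with the others at 291.1 to 314.6. Slc25a46 read 328.9 in CK-19-negative nodule 5, with the others at 457.4 to 490.4. Slc25a30 read 232.8 in CK-19-negative nodule 1, with the others at 169.5 to 178.5. Slc25a20 read 456.2 in EPF 5, with the others at 536.9 to 560.7, and Slc25a27 read 139.0 in EPF 2, with the others at 176.2 to 192.6. Slc25a52 read 224.8 in CK-19-positive nodule 4, with the others at 174.6 to 183.2, and 157.8 in control 2, with the others at 217.1 to 246.1. Most of these are dim carriers, and Slc25a20 stayed called between CK-19-negative nodules and EPFs without EPF 5.

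The difference from control itself differed between lesions, as a direct contrast in the limma fit, in 11 instances. Between the kinds of nodule, CK-19-positive minus CK-19-negative, these were Slc25a4 (log2 2.25), Slc25a25 (-2.53) and Slc25a47 (-1.49). Between CK-19-positive nodules and EPFs they were Slc25a15 (-1.43), Slc25a25 (-2.02) and Slc25a32 (-1.04). Between CK-19-negative nodules and EPFs they were Slc25a3 (-1.33), Slc25a4 (-3.14), Slc25a5 (-1.03), Slc25a20 (1.07) and Slc25a47 (2.15). Slc25a15 and Slc25a32 had opposite signs against control liver, at -0.77 and -0.34 in CK-19-positive nodules and 0.66 and 0.70 in EPFs.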

How the results depend on the processing

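Of 64 carrier differences followed under other settings, 18 were called. Of these, 14 kept the call under every alternative run for them. No sign was reversed among 1996 values of the 64. Comparisons with EPFs had no run with chip as a fixed block or within a chip, because EPFs lay alone on theirs. A carrier dropped by a setting's filter gave no value there. The call was lost under some setting for the other 4. They were Slc25a30 in EPFs, Slc25a32 between CK-19-positive nodules and EPFs, Slc25a5 between CK-19-negative nodules and EPFs, and Slc25a47 between the kinds of nodule. The cause was not tested. With no fold threshold, the carriers called against control numbered 13 in CK-19-positive nodules, 2 in CK-19-negative nodules and 16 in EPFs, since fold alone was dropped. Between lesions they numbered 10 (CK-19-positive against CK-19-negative nodules), 11 (CK-19-positive nodules against EPFs) and 12 (CK-19-negative nodules against EPFs). For these comparisons between lesions, the share of all genes without the fold threshold was not computed. With each array's 10% point subtracted, which widens differences of dim genes by construction, the counts were 6 in CK-19-positive nodules, 1 in CK-19-negative nodules and 7 in EPFs against control, and 8 between CK-19-negative nodules and EPFs. In CK-19-negative nodules the count was 1 instead of 0 with chip as a random block or as a fixed block (Slc25a4 in both) and 1 within chip 1 (Slc25a30), where a single CK-19-negative nodule was assumed to vary like the other groups. In CK-19-positive nodules it was 4 instead of 3 with the fixed block and within chip 1 (Slc25a30 added). Of carriers past the adjusted p, 5 no longer passed there with the fixed block (Slc25a1, Slc25a15, Slc25a16, Slc25a27 and Slc25a39) and 4 within chip 1 (Slc25a1, Slc25a15, Slc25a27 and Slc25a32). Between the kinds of nodule, 7 no longer passed under either setting (Slc25a1, Slc25a3, Slc25a10, Slc25a15, Slc25a16, Slc25a32 and Slc25a47). Leaving out each array in turn gave 3 to 4 carriers called in CK-19-positive nodules, 0 to 1 in CK-19-negative nodules and 3 to 4 in EPFs against control, and 3 to 3, 2 to 5 and 4 to 6 between lesions in the order above. Student's t-test, from the paper's general statistics, gave the counts of the limma fit in all 6 comparisons, unadjusted and after Benjamini-Hochberg adjustment. For its arrays the paper used an F-test with a random variance model and a multivariate permutation test, which were not run here. The chip correlation was 0.0789. Where every array of a group was under 200, a bound on the carrier's fold was given beside the fitted difference. No paired analysis was possible because the replicate number in the labels is shared by every array of a group and so pairs none, the array numbers used here being in order of deposit.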
